A study of Mus musculus with 12 samples.

Results

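The genes described here are 10 genes of the entry into glycolysis: the phosphofructokinase isoforms Pfkm, Pfkl and Pfkp, the bifunctional enzymes Pfkfb1, Pfkfb2, Pfkfb3 and Pfkfb4, the hexokinases Hk1 and Hk2, and the glucose transporter Slc2a1. They were selected on their measured levels in busulfan and control hearts, where Pfkp was higher with busulfan and its isoforms did not move alike, so that comparison is given below as a description, without a test. The 10 genes are among 17536 in the deposited table, and all 10 passed the filter on low counts that left 13489 genes for testing. The 12 RNA-seq libraries came from hearts of 10-week-old ICR mice, which are outbred, in 4 groups of 3. The groups were control, busulfan at 20 mg/kg, busulfan with FMT of a control kind (control-FMT), and busulfan with FMT of an AOS kind labelled 10 mg/kg (AOS-FMT). Busulfan is an alkylating drug used before marrow transplantation. The abbreviations AOS and FMT are the submitters', and their labels state no dose of busulfan for the FMT groups. The study asked how FMT acts on hearts damaged by busulfan.

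Glucose enters a cell through transporters such as GLUT1, the product of Slc2a1, and is trapped as glucose 6-phosphate by hexokinase. Phosphofructokinase then commits the sugar to glycolysis by adding a phosphate to fructose 6-phosphate, and works as a tetramer built from muscle (Pfkm), liver (Pfkl) and platelet (Pfkp) subunits in proportions that differ between tissues. The PFKFB enzymes make and break down fructose 2,6-bisphosphate, the strongest activator of phosphofructokinase. The adult heart draws most of its energy from fatty acids and keeps glycolysis in reserve.

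Sequences upstream of the RefSeq start are shown for Pfkp, which stood apart from its isoforms under busulfan, and for Hk2, whose level followed the cardiomyocyte markers as described further on and which has a single start in the RefSeq promoter table (build GRCm38.p6). All 10 genes had a window in that table. Both stretches hold 250 bases, 5′ to 3′ on the gene's own strand. Capitals mark GC boxes, the letters GGGCGG on either strand. The Pfkp stretch lies at chr13:6648772-6649021 and the Hk2 stretch at chr6:82774455-82774704, both on the minus strand, and 6 bases of the first and 0 of the second fall in an annotated exon. The Pfkp start of that table lies 289 bases inside the outer end of the gene's RefSeq span, so the Pfkp stretch is within the gene as annotated, while the Hk2 start is at the end of its span.
Pfkp: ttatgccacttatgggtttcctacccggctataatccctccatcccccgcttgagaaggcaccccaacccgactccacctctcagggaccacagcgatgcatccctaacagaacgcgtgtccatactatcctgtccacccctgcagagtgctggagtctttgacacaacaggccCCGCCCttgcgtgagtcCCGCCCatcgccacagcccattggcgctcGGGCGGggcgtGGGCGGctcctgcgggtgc
Hk2: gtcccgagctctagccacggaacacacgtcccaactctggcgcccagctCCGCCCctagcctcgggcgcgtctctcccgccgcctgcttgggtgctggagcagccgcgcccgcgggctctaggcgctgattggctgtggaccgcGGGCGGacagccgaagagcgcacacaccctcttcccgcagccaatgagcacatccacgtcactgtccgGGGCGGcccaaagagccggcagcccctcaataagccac
The Pfkp stretch held 4 GC boxes, whose first bases lay 76, 59, 30 and 19 bases upstream of the start, and 1 CCAAT box at 40 bases. The Hk2 stretch held 3 GC boxes, at 201, 106 and 38 bases, and 2 CCAAT boxes, at 122 and 66 bases. The hypoxia response core ACGTG stood in the Hk2 stretch 2 times, at 226 and 52 bases, and was not among the letters of the Pfkp stretch. The E-box CACGTG, which contains ACGTG, and TATAAA were searched as well, on both strands, and neither was in either stretch. Over 32851 windows of the same length in the RefSeq table, 32.7% held a GC box, 33.8% a CCAAT box, 16.6% ACGTG, 6.0% CACGTG and 12.4% TATAAA. G and C made up 62.8% of the Pfkp bases and 69.6% of the Hk2 bases, against a median of 52.4% over those windows. These matches describe the letters only.

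Library totals lay between 11333600 and 14335700 estimated counts. All 10 cardiomyocyte markers were present in every library, with summed levels from 77540 to 139464 CPM (counts scaled to a common library size by TMM), so the tissue label held. The 4 atrial markers had sums of 546 to 5985 CPM in control and 874 to 8414 CPM in AOS-FMT, against 8.18 to 882 CPM in busulfan and 14.2 to 1255 CPM in control-FMT. The 10 liver markers summed to at most 62.4 CPM outside AOS-FMT and to 64.3 to 634 CPM within it. Replicates carry numbers only, and nothing in the labels ties them to separate mice, so the p-values below reflect the spread between libraries, some of which may be technical.

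Per transcript length, Pfkm was the main transcript of the set. Its mean level over the 12 libraries was 503 TPM, a unit scaled by gene length and depth, against 110 TPM for Hk1, 61.0 TPM for Pfkl, 57.3 TPM for Hk2 and 40.1 TPM for Pfkp. Pfkfb2, the isoform that is phosphorylated by insulin and adrenaline signalling in heart, followed at 21.2 TPM, then Slc2a1 at 12.4 TPM and Pfkfb1 at 10.1 TPM. Pfkfb3 and Pfkfb4, at 3.03 and 2.38 TPM, were the lowest, and Pfkfb4 rested on 43 to 104 counts per library. Neighbours in this order kept it in 12 of 12 libraries, except that Pfkl exceeded Hk2 in 9, Slc2a1 exceeded Pfkfb1 in 9 and Pfkfb3 exceeded Pfkfb4 in 10.

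Pfkp encodes the platelet-type subunit, which is also the common form in brain and in many dividing cells. In control it stood at 73.9, 66.3 and 84.2 CPM and in busulfan at 143, 122 and 147 CPM. The control-FMT libraries had 107, 126 and 93.3 CPM and the AOS-FMT libraries 90.8, 92.0 and 84.5 CPM. Every busulfan library was thus above every control library, the control-FMT libraries lay above control and reached into the busulfan range, and the AOS-FMT libraries lay just above the highest control. Group means were 74.8 ± 8.95, 137 ± 13.2, 109 ± 16.5 and 89.1 ± 4.04 CPM (SD, n = 3 each), in that order. The difference of busulfan from control was 0.88 ± 0.13 (SE) on the log2 scale, 1.84-fold, and it ran from 0.79 to 0.98 over the 22 other ways of fitting or leaving out a library that were tried. Against control, which the choice of Pfkp used, the level was 0.54 ± 0.13 higher in control-FMT and 0.25 ± 0.13 higher in AOS-FMT on the log2 scale. Against busulfan the difference was -0.34 ± 0.13 in control-FMT and -0.62 ± 0.13 in AOS-FMT. With the liver markers as a covariate the AOS-FMT differences were 0.52 from control and -0.46 from busulfan. These comparisons share the libraries on which Pfkp was chosen, so no test is given for them.

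**Figure D1:**
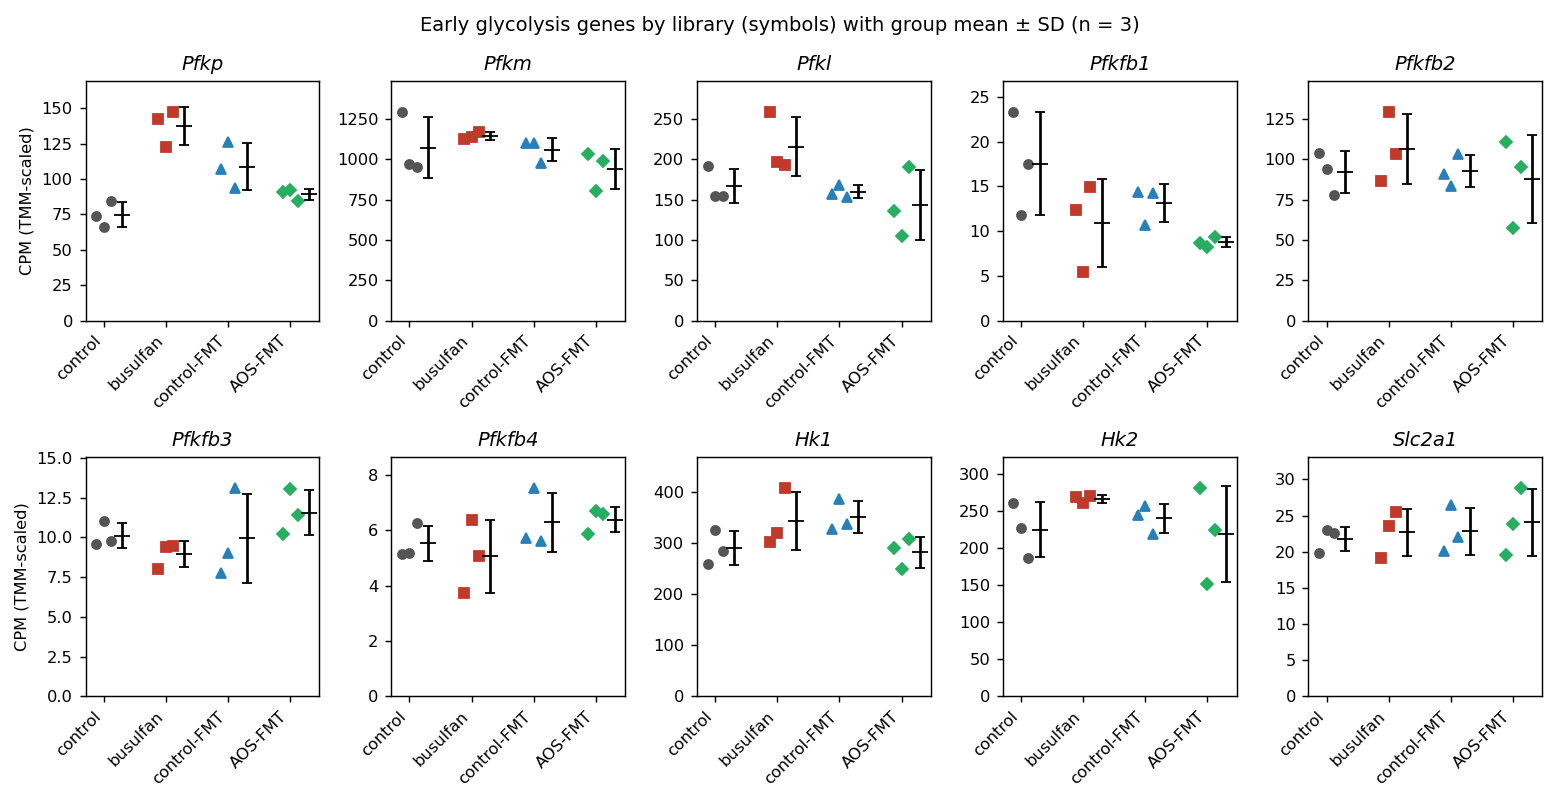
Level of each of the 10 genes in CPM scaled by TMM (vertical axes from 0) in the 12 libraries, 1 symbol per library, with the group mean ± SD (n = 3) as a bar beside them. The 3 busulfan libraries of Pfkp sit between 122 and 147 CPM, all above the control libraries at 66.3 to 84.2 CPM, while Pfkm, Hk2 and Slc2a1 overlap between those groups.

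Pfkm, the muscle subunit, had 1293, 974 and 955 CPM in control and 1124, 1140 and 1172 CPM in busulfan. Control replicate 1 was the highest library of all 12, so the groups overlapped, and the difference was 0.09 ± 0.15 (SE) on the log2 scale. The FMT libraries had 1100, 1104 and 981 CPM in control-FMT and 1031, 802 and 989 CPM in AOS-FMT, where replicate 2 was the lowest of all 12. Pfkl, the liver-type subunit, had 192, 155 and 155 CPM in control and 259, 197 and 193 CPM in busulfan. The lowest busulfan library of Pfkl was just above the highest control library, at 193 against 192 CPM, and the difference was 0.37 ± 0.19 on the log2 scale. With the atrial, liver or cardiomyocyte markers as a covariate it was 0.12, 0.19 and 0.20. Pfkl stood at 157, 169 and 153 CPM in control-FMT and 136, 105 and 190 CPM in AOS-FMT, within or below the control range.

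Because Pfkm was so much more abundant, the added Pfkp made a small part of all phosphofructokinase transcripts. Pfkp took 3.92%, 4.86% and 6.04% of the summed TPM of the 3 isoforms in control and 8.14%, 7.34% and 8.44% in busulfan. The share was 6.63%, 7.64% and 6.53% in control-FMT and 6.04%, 7.90% and 5.79% in AOS-FMT. Both FMT groups lay above the control mean of 4.94% ± 1.06 (SD, n = 3) and overlapped each other. AOS-FMT also overlapped the control libraries, while control-FMT lay above all of them. Pfkm made up 85.1% ± 1.33 of the sum in control and 80.7% ± 2.00 with busulfan, against 83.7% ± 0.720 with control-FMT and 83.9% ± 1.58 with AOS-FMT (SD, n = 3 each). The summed level was 552 ± 68.0, 664 ± 29.1, 631 ± 33.7 and 567 ± 77.3 TPM in the same order. Between the FMT groups the Pfkp share differed by -0.36 percentage points (two-sided exact permutation p = 0.6) and the summed level by -63.4 TPM (exact p = 0.3). The smallest exact p that 3 against 3 libraries allow is 0.1, and over 15 such tests of shares and sums every adjusted p was 0.808 or higher. Without AOS-FMT replicate 2, which had the least Pfkm, the share differed by -1.02 points, and without AOS-FMT replicate 3 by 0.03 points.

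**Figure D2:**
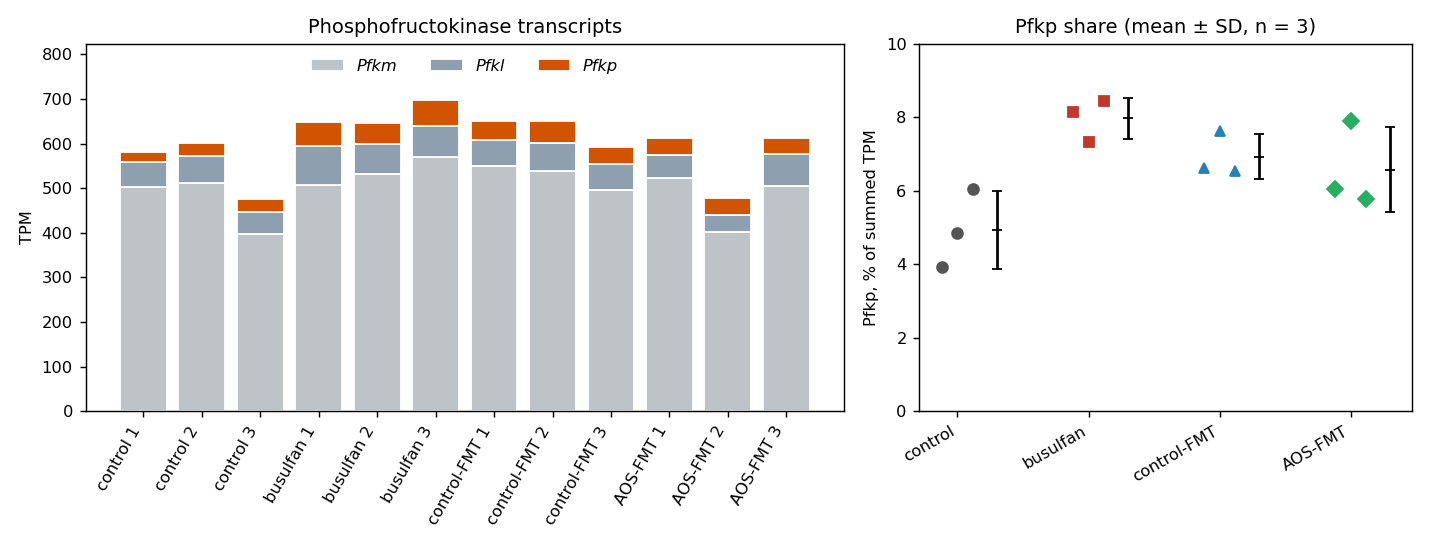
Left, TPM of Pfkm, Pfkl and Pfkp stacked for each of the 12 libraries; right, Pfkp as a percent of that sum, 1 symbol per library, with the group mean ± SD (n = 3). Pfkm makes up 78.4% to 86.5% of every bar, and the Pfkp share runs from 3.92% in control replicate 1 to 8.44% in busulfan replicate 3.

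Among the bifunctional enzymes, Pfkfb2 took 57.5% of the summed PFKFB TPM as a mean over the 12 libraries, Pfkfb1 27.6%, Pfkfb3 8.38% and Pfkfb4 6.60%. Pfkfb1, known from liver and skeletal muscle, varied most among the 10 genes, with a 4.29-fold range over the libraries on 64 to 272 counts. It had 23.3, 11.8 and 17.5 CPM in control, 12.4, 5.43 and 14.9 CPM in busulfan, 14.4, 10.7 and 14.2 CPM in control-FMT and 8.72, 8.20 and 9.36 CPM in AOS-FMT. Every AOS-FMT library was below every control and control-FMT library, and the busulfan libraries overlapped all other groups. Pfkfb2 had 104, 93.8 and 78.0 CPM in control, 86.5, 129 and 103 CPM in busulfan, 90.9, 83.5 and 103 CPM in control-FMT and 111, 57.4 and 95.3 CPM in AOS-FMT, with overlap between all groups. AOS-FMT replicate 2 was its lowest library, as it was for Pfkm.

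Pfkfb3, an isoform with high kinase activity that is induced by hypoxia and cytokines, had 9.59, 11.02 and 9.76 CPM in control and 8.01, 9.42 and 9.47 CPM in busulfan. It stood at 7.76, 9.001 and 13.1 CPM in control-FMT and 10.2, 13.0 and 11.4 CPM in AOS-FMT. Its busulfan libraries were all below control and below AOS-FMT, and busulfan differed from control by -0.17 ± 0.19 (SE) on the log2 scale. Pfkfb4, an isoform best known from testis and tumours, lay between 3.74 and 7.53 CPM in all 12 libraries, with overlap between all groups. Hk1, the hexokinase of most adult tissues, took 65.7% of the summed Hk1 and Hk2 TPM. It had 260, 326 and 285 CPM in control, 302, 320 and 408 CPM in busulfan, 328, 386 and 338 CPM in control-FMT and 291, 249 and 308 CPM in AOS-FMT. Its control-FMT libraries were all above control and above AOS-FMT. Hk2, the insulin-responsive hexokinase of muscle, had 261, 228 and 187 CPM in control, 269, 261 and 271 CPM in busulfan, 245, 258 and 219 CPM in control-FMT and 282, 151 and 224 CPM in AOS-FMT. The busulfan libraries were close together, while AOS-FMT held both the highest and the lowest Hk2 level of the 12. Slc2a1 lay between 19.1 and 28.8 CPM with overlap between all groups, and took 4.47% of the summed TPM of Slc2a1 and Slc2a4, the insulin-responsive transporter GLUT4.

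In busulfan against control, 7 of the 10 genes lay above 0 and 3 below, with a median log2 difference of 0.15 against -0.01 over all genes tested. All 10 cardiomyocyte markers lay above 0 there, with a median of 0.24, and their part was not tested. Pfkp and Pfkl were higher without overlap of the groups and Pfkfb3 lower without overlap, where 7.74% of all genes were higher and 6.38% lower in that way, 14.1% in all. Pfkfb1 stood at -0.68 ± 0.32 (SE), Hk1 at 0.24 ± 0.14, Hk2 at 0.24 ± 0.19, Pfkfb2 at 0.21 ± 0.22, Pfkfb4 at -0.13 ± 0.21 and Slc2a1 at 0.06 ± 0.16 on the log2 scale. The choice of the set used this comparison.

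AOS-FMT against control-FMT shares no library with the comparison on which the genes were chosen, and there no gene of the set passed the test. The spread used in that test was estimated from all 12 libraries, control and busulfan included. edgeR, DESeq2 and limma-voom each called 0 of 10. Over all 13489 genes edgeR called 4 (0.0297%), DESeq2 32 and limma-voom 4. At an unadjusted p under 0.05 edgeR had 2 of 10, Pfkp and Hk1, against 6.23% of all genes. Pfkp, Pfkfb1 and Hk1 did not overlap between the groups, all lower in AOS-FMT, where 13.8% of genes did not overlap and 7.29% did so downward. Pfkp differed by -0.29 ± 0.13 (SE) on the log2 scale with a 95% interval from -0.56 to -0.01 (edgeR adjusted p = 0.792). Fitted on the 6 libraries compared alone, it differed by -0.29 ± 0.12 (edgeR adjusted p = 0.661). Hk1 differed by -0.31 ± 0.14 (edgeR adjusted p = 0.797, interval -0.62 to 0.00) and Pfkfb1 by -0.58 ± 0.32 (edgeR adjusted p = 0.797, interval -1.28 to 0.11). These 3 kept their sign under each of the 22 alternatives, which reuse the same libraries. Pfkp lay between -0.39 and -0.13, Hk1 between -0.43 and -0.23 and Pfkfb1 between -0.71 and -0.42. With the atrial, liver or cardiomyocyte markers as a covariate Pfkp stood at -0.19 ± 0.17, -0.13 ± 0.18 and -0.30 ± 0.15.

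The other 7 genes were nearer to 0 between the FMT groups. Pfkm differed by -0.17 ± 0.15 (edgeR adjusted p = 0.826, interval -0.49 to 0.14), Pfkl by -0.15 ± 0.19 (0.887, interval -0.56 to 0.26) and Hk2 by -0.14 ± 0.19 (0.901, interval -0.54 to 0.27). Pfkfb2 stood at -0.08 ± 0.22, Pfkfb3 at 0.22 ± 0.18, Pfkfb4 at 0.02 ± 0.21 and Slc2a1 at 0.08 ± 0.16, with edgeR adjusted p values of 0.956, 0.826, 0.988 and 0.932. Of the 10, 3 lay above 0 and 7 below, with a median of -0.14 against 0.00 over all genes. In counts simulated for this comparison, 19.9% of the changes of 1.5-fold passed the edgeR test, as did 65.2% of those of 2-fold and 87.4% of those of 4-fold. Each simulated set held 200 changed genes, which eases the adjusted threshold, while edgeR called 4 genes in the real comparison. The shares that passed may thus be too high for these libraries.

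**Figure D3:**
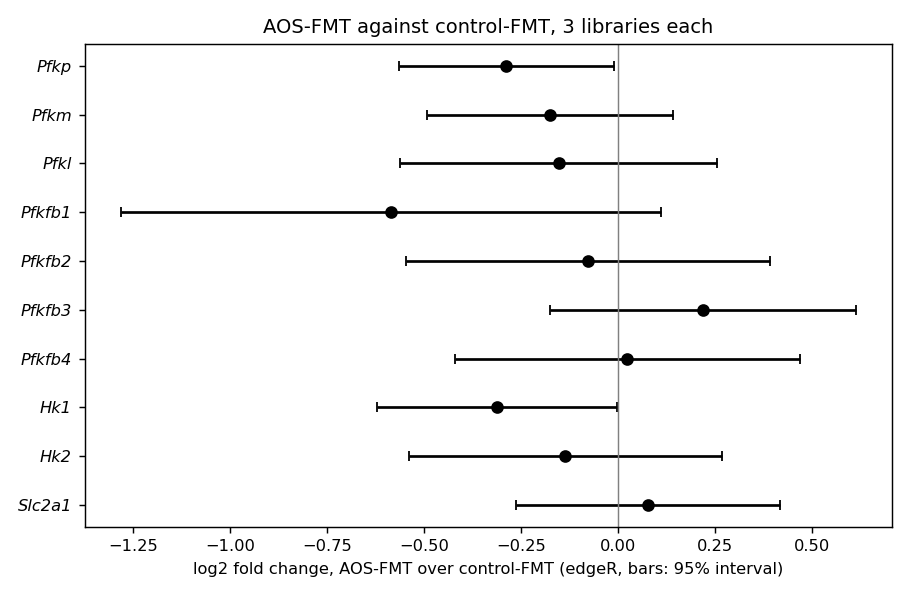
Log2 fold change of AOS-FMT over control-FMT for each of the 10 genes (points, edgeR) with 95% intervals (bars), 3 libraries per group. The intervals of Pfkp and Hk1 end just below 0, at -0.01 and 0.00, and the other 8 include 0.

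The remaining comparisons reuse control or busulfan libraries, so they are not independent of the choice of genes. The levels of Pfkp, Pfkm and Pfkl entered that choice, so these genes are left out of the tests and described only. Of the other genes of the set edgeR, DESeq2 and limma-voom called 0 in each comparison. Over all 13489 genes DESeq2 called 131 in AOS-FMT against busulfan and 2 in control-FMT against busulfan. Against control it called 92 in control-FMT and 122 in AOS-FMT. In the same order limma-voom called 4, 0, 0 and 15. In AOS-FMT against busulfan edgeR called 0.0445% of all genes, and 13.6% had an unadjusted p under 0.05. No tested gene of the set was among either. Pfkl differed there by -0.59 ± 0.19 (SE). The Pfkl difference was -0.33 with the atrial, -0.24 with the cardiomyocyte and -0.90 with the liver markers as a covariate. Pfkm differed there by -0.28 ± 0.15, Hk1 by -0.28 ± 0.14 (edgeR adjusted p = 0.392) and Pfkfb3 by 0.37 ± 0.18 (0.386). Leaving Pfkp aside, Pfkm and Pfkl were lower without overlap and Pfkfb3 higher. In that comparison 10.9% of all genes were lower and 10.3% higher without overlap, 21.2% in all. In control-FMT against busulfan, where edgeR called 0% of all genes, 358 genes (2.65%) had an unadjusted p under 0.05. No tested gene of the set was among them. Pfkl differed by -0.44 ± 0.19, and by -0.29 without busulfan replicate 1 or with the cardiomyocyte covariate. Pfkm, Pfkl and Hk2 were lower there without overlap, against 6.58% of all genes downward and 12% in either direction. In control-FMT against control edgeR called 0% of all genes, and 1106 (8.2%) had an unadjusted p under 0.05. None of the tested genes of the set was among those 1106. Hk1 was higher without overlap, at 0.27 ± 0.14 (edgeR adjusted p = 0.639), against 7.16% of all genes upward and 11.9% in either direction. In AOS-FMT against control, where edgeR called 0.0815% of all genes, Pfkfb1 was lower without overlap at -0.999 ± 0.317 (edgeR adjusted p = 0.355), against 3.8% of genes downward, 6.63% upward and 10.4% in all. It alone of the tested genes of the set had an unadjusted p under 0.05, as 8.87% of all genes had.

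The members differed in how they followed cardiomyocyte transcripts across the libraries. Pfkm had a Pearson r of 0.94 with the mean log2 CPM of the 10 cardiomyocyte markers over 12 libraries, and Hk2 had 0.87, Pfkl 0.76 and Pfkfb2 0.73. Taken as deviations from the group means, the values were 0.91, 0.88, 0.54 and 0.71. For Pfkp r was 0.47 over the libraries and -0.04 within groups, and Hk1 had 0.35, Slc2a1 -0.39, Pfkfb4 -0.47 and Pfkfb3 -0.65 over the libraries. The cardiomyocyte markers summed to 116864 to 139464 CPM with busulfan and 86560 to 127917 CPM in control, against 104274 to 109703 CPM with control-FMT and 77540 to 101680 CPM with AOS-FMT. AOS-FMT replicate 2 was the lowest, and also had the highest sum of the 8 fibroblast markers, 5232 CPM against 2009 to 4340 CPM elsewhere. Without it r was 0.88 for Pfkm, 0.73 for Hk2, 0.56 for Pfkl and 0.45 for Pfkfb2. All points share the scaling of a library, and in whole tissue fewer cells of a type and less RNA per cell cannot be told apart. With the marker level as a covariate, an alternative chosen after seeing the data, Pfkm between the FMT groups moved from -0.17 to 0.04, Hk2 from -0.14 to 0.16 and Pfkl from -0.15 to 0.05 on the log2 scale.

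**Figure D4:**
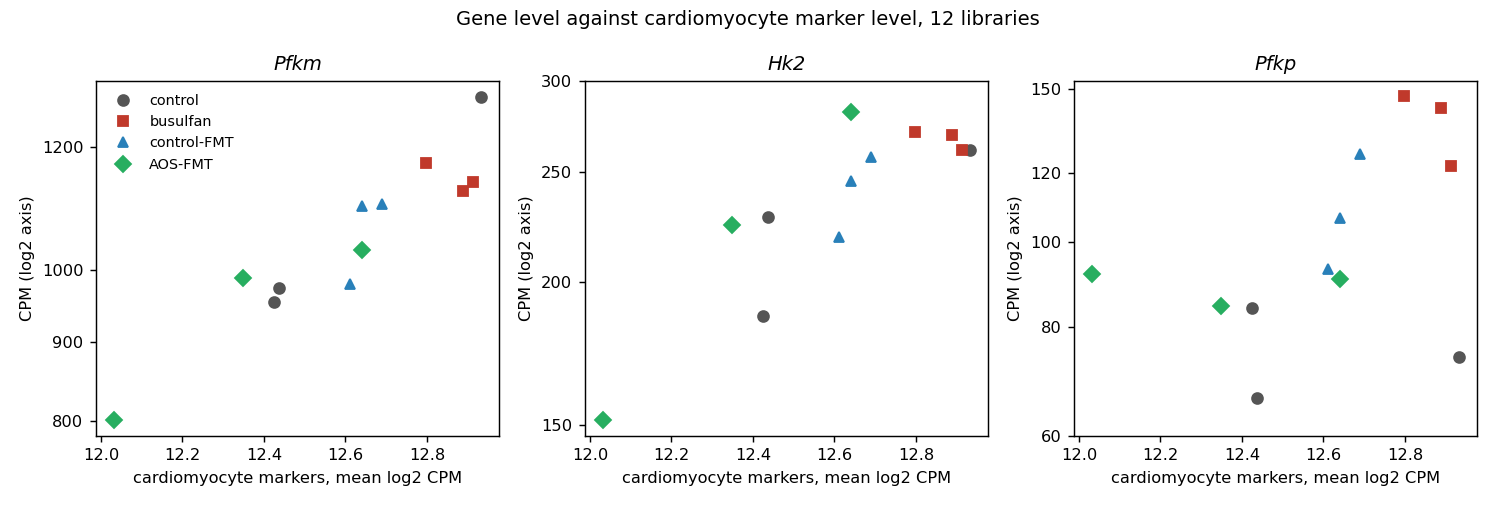
CPM of Pfkm, Hk2 and Pfkp (vertical axes, log2 scale) against the mean log2 CPM of 10 cardiomyocyte markers (horizontal axes), 1 symbol per library, coloured by group. Pfkm and Hk2 follow the markers (r = 0.94 and 0.87), while the busulfan libraries of Pfkp stand above the control library of like marker level.

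Other marker lists differed between the groups as well, not all in the order of Pfkp. The 10 platelet markers, of which 5 passed the filter, summed to 16.8 to 21.1 CPM with busulfan, where Pfkp was higher, and 25.8 to 95.3 CPM in control, and all 10 had counts in both groups. The 10 mural markers were lowest in control (1081 to 1273 CPM summed), then busulfan (1280 to 1390 CPM), AOS-FMT (1364 to 1388 CPM) and control-FMT (1441 to 1716 CPM). Over the 12 libraries Pfkp had r = -0.66 with the platelet markers, 0.42 with the mural, -0.65 with the macrophage and -0.69 with the atrial markers, and within groups -0.26, -0.02, 0.41 and -0.33. The 8 fibroblast markers summed to 2009 to 2606 CPM with busulfan and 2625 to 4340 CPM in control, with 7 of 8 below 0 and a median log2 difference of -0.53. The 10 liver markers summed to 24.3 to 33.9 CPM with busulfan, within the control range of 7.79 to 62.4 CPM. Their mean log2 CPM, which weights the 10 genes alike, was 0.79 to 1.20 with busulfan and -0.73 to -0.11 in control, with 8 of 10 genes above 0 and a median log2 difference of 2.53. Pfkp had r = -0.51 with the fibroblast and 0.04 with the liver markers over the libraries, and 0.10 and -0.41 within groups. With the endothelial markers r was -0.51 over the libraries and -0.63 within groups, and with the fast skeletal muscle markers -0.58 and -0.52. The neutrophil, erythroid and adipocyte markers gave -0.14, -0.31 and -0.35 over the libraries, and 0.38, 0.08 and -0.07 within groups. The part of these cell types in the Pfkp levels was not tested. With the atrial, cardiomyocyte or liver markers as a covariate the difference of Pfkp between busulfan and control was 0.79, 0.89 and 0.98, given as a description since this comparison chose the gene.

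Among each other, Pfkm and Hk2 had the highest correlation of the 45 pairs of members, r = 0.85 over 12 libraries and 0.85 within groups. Pfkfb2 and Hk2 had 0.78, Pfkm and Pfkl 0.74 and Pfkm and Pfkfb2 0.67. Pfkp had 0.35 with Pfkm and 0.46 with Pfkl, and 0.08 and -0.02 within groups. Of 10506 genes with a mean of at least 5 CPM, Vps51, part of a tethering complex of endosomes, was the most like Pfkp over the 12 libraries (r = 0.92, and 0.90 within groups). It was followed by Apbb3 (0.90), Abca7 (0.89), Urb1 (0.88), Trim3 (0.87) and Cpsf1 (0.86). Within groups Apbb3 kept 0.80 and Cpsf1 had 0.20. The most opposite were Gpr180 (-0.84), Tmem39a (-0.83) and Yme1l1 (-0.83). Hk2 was most like Sbk1 (0.97), Pfkfb2 like Stx17 (0.97), Pfkl like Lsm11 (0.93) and Pfkfb4 like Shtn1 (0.92). Pfkfb1 was most like Mterf2 (0.90), Pfkfb3 like Crebrf (0.90), Hk1 like Uri1 (0.90) and Slc2a1 like Hdac6 (0.84). These values were picked as the highest of many and share library scaling and depth.

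The rest of the pathway was read from 6 gene lists. edgeR and limma-voom called 0 of their 64 tested genes in each of the 6 comparisons, where edgeR called 0% to 0.0815% of all genes (0.0593% in busulfan against control). At an unadjusted p under 0.05 edgeR had 16 of the 64 (25.0%) in AOS-FMT against busulfan, against 13.6% of all genes, and 12 (18.8%) in AOS-FMT against control, against 8.87%. Between the FMT groups it had 9 (14.1%), against 6.23% of all genes. The numbers were 8 (12.5%) in busulfan against control, 7 (10.9%) in control-FMT against control and 3 (4.69%) in control-FMT against busulfan, against 11.3%, 8.2% and 2.65% of all genes. DESeq2 made 5 calls in all on the lists, among them Fbp1, Fbp2 and Gpi1 in AOS-FMT against busulfan, where it called 0.971% of all genes, and Fbp1 in AOS-FMT against control, where it called 0.904%. Of the other glycolytic enzymes 19 were listed and 16 tested, and between the FMT groups 2 lay above 0 and 14 below, with a median log2 difference of -0.22 against 0.00 over all genes. Gapdh stood at 6176 ± 794 CPM in AOS-FMT and 7883 ± 209 CPM in control-FMT (SD, n = 3 each), a log2 difference of -0.35 ± 0.17 (edgeR adjusted p = 0.797). Aldoa, which splits the product of phosphofructokinase, differed by -0.26 ± 0.15 and Ldhb by -0.26 ± 0.20. In busulfan against control Gapdh differed by -0.03 ± 0.17, Aldoa by 0.20 ± 0.15 and Ldhb by 0.11 ± 0.20. The list's median there was -0.02, with 6 of 16 above 0. The summed cardiomyocyte markers were lower in AOS-FMT as well, with 9 of 10 below 0 and a median of -0.26, and their part was not tested.

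Of the other lists, the 10 tested glucose and lactate transporters had a median of -0.04 between the FMT groups, with Bsg, the partner of the lactate carriers, at -0.25 ± 0.16, Slc2a4 at -0.13 ± 0.16 and Slc16a1 at -0.08 ± 0.20. The 15 glycogen enzymes had a median of -0.09, with Pygm, the muscle glycogen phosphorylase, at -0.24 ± 0.14, Pgm1 at -0.31 ± 0.16 and Pygb at -0.01 ± 0.38. The 8 pentose phosphate enzymes had a median of -0.10, with Pgd at -0.24 ± 0.11, Pgls at -0.20 ± 0.14 and Taldo1 at -0.15 ± 0.12. The 12 hypoxia-inducible genes had a median of -0.16, with Egln1 at -0.26 ± 0.18, Bnip3 at -0.14 ± 0.16 and Vegfa at -0.09 ± 0.18. In busulfan against control these 4 medians were 0.10, 0.06, 0.03 and 0.07. No gene of these 4 lists passed the edgeR test in either comparison.

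The 3 genes that oppose phosphofructokinase did not share a direction. Fbp1, the fructose bisphosphatase of liver and kidney, had 0.34, 0.46 and 0.63 CPM in control, 0.17, 0.59 and 0.34 in busulfan, 0.94, 0.41 and 0.95 in control-FMT and 1.01, 3.55 and 5.85 CPM in AOS-FMT. All 3 AOS-FMT libraries were above the other 9, on 12 to 80 counts, and the log2 difference from control-FMT was 2.17 ± 0.58 (edgeR adjusted p = 0.706). AOS-FMT replicate 1 and control-FMT replicate 1 both had 12 counts, at 1.01 and 0.94 CPM, so their order rests on the scaling. The summed liver markers were also highest in AOS-FMT, at 64.3, 137 and 634 CPM in replicates 1 to 3, and all 10 liver markers lay above 0 against control-FMT. Their part in Fbp1 was not tested. Fbp2, the muscle form, had its lowest mean in AOS-FMT, at 8.64, 7.62 and 5.63 CPM. In control it had 11.9, 7.07 and 12.5 CPM, the lowest of them within the AOS-FMT range. It stood at 13.0, 8.76 and 10.4 CPM in control-FMT and 13.2, 13.6 and 16.5 CPM in busulfan. Its log2 difference was -0.56 ± 0.23 from control-FMT (edgeR adjusted p = 0.792) and -0.99 ± 0.23 from busulfan (edgeR adjusted p = 0.232, DESeq2 adjusted p = 0.0219). Tigar, which breaks down fructose 2,6-bisphosphate, differed by -0.35 ± 0.15 between the FMT groups (edgeR adjusted p = 0.792).

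**Figure D5:**
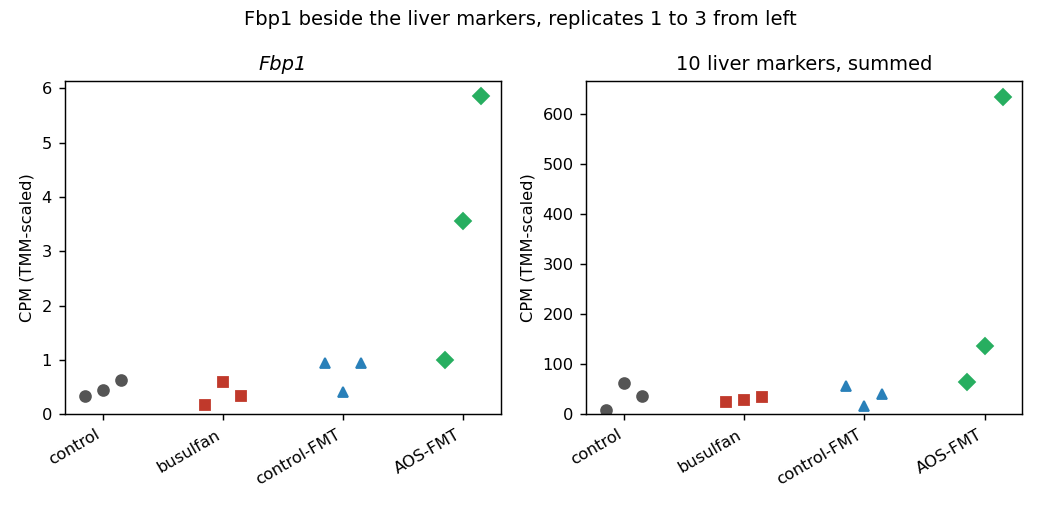
CPM of Fbp1 and of 10 summed liver markers (vertical axes from 0), 1 symbol per library, replicates 1 to 3 from left in each group. In AOS-FMT replicate 3 is the highest in both panels, at 5.85 and 634 CPM, and replicate 1 lies at 1.01 and 64.3 CPM.

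All 10 genes are protein-coding, and positions are those of GRCm38.p6, counted from 1. Pfkp (NCBI gene 56421) lies on chromosome 13 at 6579874 to 6649060, Pfkm (18642) on chromosome 15 at 98092589 to 98132447 and Pfkl (18641) on chromosome 10 at 77986947 to 78009807. Hk1 (15275) lies on chromosome 10 at 62268855 to 62379920, Hk2 (15277) on chromosome 6 at 82725025 to 82774454 and Slc2a1 (20525) on chromosome 4 at 119108745 to 119137330. Pfkfb1 (18639) is on chromosome X at 150587445 to 150643878, Pfkfb2 (18640) on chromosome 1 at 130689043 to 130729253, Pfkfb3 (170768) on chromosome 2 at 11471430 to 11554071 and Pfkfb4 (270198) on chromosome 9 at 108988272 to 109032236. Exons of Pfkp share 748 bases with exons of Pitrm1, a mitochondrial peptidase gene on the opposite strand. Pfkfb2 exons share 1262 bases with Gm29427 on the same strand and 154 with Yod1 on the opposite one, and Pfkm exons share 341 bases with Gm26513 on the same strand and 18 with Senp1 on the opposite one. On the opposite strand Hk1 exons share 157 bases with Hk1os, Pfkfb1 exons 123 with Apex2 and Slc2a1 exons 105 with Gm12868. Gm29427, Gm26513, Hk1os and Gm12868 were not matched to the table by symbol. Strand use in counting was not given in the sources used here, so reads of these stretches cannot be told apart. Pitrm1 lay between 62.5 and 76.7 CPM in all 12 libraries and differed by -0.11 ± 0.09 on the log2 scale between busulfan and control, where Pfkp differed by 0.88.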

How the data were processed

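Heart RNA was isolated with Trizol and sequenced from Illumina libraries, per the labels' protocols. The authors deposited estimated counts per gene with TPM and FPKM for each library, per the file headers. The submitters' processing notes name Bowtie 0.12.2 and the build mm10. Counting tool, annotation and strand use were not given in the sources used here. Columns of group means made by the authors were left out. Of 17536 gene IDs, 17487 matched a RefSeq table of GRCm38.p6.

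From 94.7% to 95.3% of estimated counts per library were whole within 1e-09, and all were rounded. All 12 libraries entered one quasi-likelihood fit (edgeR 4.0.16, R 4.3.3) with group as the only term, after filterByExpr and TMM scaling (factors 0.908 to 1.08). Calls rest on p-values adjusted by Benjamini-Hochberg over 13489 genes, at a threshold of 0.05. DESeq2 1.42.0, limma-voom (limma 3.58.1), other scalings and filters, a replicate block, marker covariates, the 6 libraries compared alone and leaving out each library were alternatives. Shares used the deposited TPM, with FPKM and CPM as alternatives, and exact permutation tests. Correlations used log2 CPM with a prior count of 2. The procedure was tested on simulated data, in 3 draws over 13378 genes with 200 changed, where 5.49% of calls were false. Replicates of a group differed by a chi-square per degree of freedom of 8.88 to 71.5, above sampling noise.

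The 10 genes, the pathway lists and the 12 marker lists were chosen with earlier results of these data known. Named genes were the 10 members, every list gene called or else the 3 of each list with the highest mean TPM, the 6 genes most and 3 least like Pfkp, and the gene most like each other member, without predicted genes. Some genes that fell under this rule are not reported here. Gpi1, Adm, Hk3, Pitrm1 and the other genes with overlapping exons were named after their values were seen. Hkdc1 and Ero1l of the lists were not matched to the table by symbol. Endothelial markers summed to 1138 to 1438 CPM, macrophage markers to 519 to 1174, neutrophil markers to 4.48 to 10.1, erythroid markers to 2512 to 14767, adipocyte markers to 0.44 to 37.3 and fast skeletal muscle markers to 23.5 to 116 CPM. The deviations of same-numbered libraries from their group means correlated above 0.1 in every pair only for AOS-FMT against busulfan (0.16 to 0.44), where the pairing comes from the data and not from the labels.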

Additional observations from a re-analysis of the deposited data

How the results depend on the processing

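The counts of members called were 0 in 5 comparisons, with Pfkp, Pfkm and Pfkl left out of all but AOS-FMT against control-FMT. They stayed at 0 under each of the 22 alternatives, the replicate block included. Over all genes, calls with the block went from 6 to 14 for AOS-FMT against busulfan and from 11 to 25 for AOS-FMT against control. They went from 0 to 7 for control-FMT against control, 8 to 10 for busulfan against control and 4 to 6 for AOS-FMT against control-FMT. For control-FMT against busulfan they stayed at 0. The labels do not pair replicates across groups. The counts over all genes depended on the tool: for AOS-FMT against control-FMT DESeq2 called 32 and edgeR 4, and for AOS-FMT against busulfan 131 and 6. List genes called were 0 with edgeR, 5 with DESeq2 (among them Fbp1, Fbp2 and Gpi1 in AOS-FMT against busulfan and Fbp1 in AOS-FMT against control), 2 with the cardiomyocyte covariate, chosen after seeing the data (Adm), and 0 to 2 when a library was left out (Pygb without control replicate 1, Fbp1 in 2 comparisons without AOS-FMT replicate 1). The Pfkp share, -0.36 points between the FMT groups, was 0.034 without AOS-FMT replicate 3 and ran from -1.02 to 0.034 over the libraries left out, and the exact p was 0.5 when paired by number as a replicate block. Signs reversed for uncalled members between the FMT groups. With the atrial covariate Pfkm was 0.0054, Pfkl 0.11, Pfkfb3 -0.082, Pfkfb4 -0.065, Hk2 0.13 and Slc2a1 -0.12. With the liver covariate Slc2a1 was -0.13. With the cardiomyocyte covariate Pfkm was 0.035, Pfkl 0.047, Pfkfb2 0.20, Pfkfb4 -0.050, Hk2 0.16 and Slc2a1 -0.054, and Pfkm was 0.079 against busulfan. Leaving out a library gave -0.41 to 0.034 for Pfkl, -0.28 to 0.16 for Pfkfb2, -0.052 to 0.17 for Pfkfb4, -0.36 to 0.073 for Hk2 and -0.072 to 0.20 for Slc2a1. The causes were not tested. Scaling by library size alone moved the median of all genes by 0.13 in AOS-FMT against busulfan. Depth limits Pfkfb4 (43 to 104 counts per library), Pfkfb1 and Fbp1 most.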

Other observations

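Hk3, the hexokinase of myeloid cells, was measurable in these hearts at low level and lay between 2.04 and 3.94 CPM in 11 libraries and at 8.67 CPM in control-FMT replicate 2.

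Pygb, the brain form of glycogen phosphorylase, stood at 849, 340 and 237 CPM in the control libraries and at 660 to 1011 CPM in the other 9. The control libraries 2 and 3 were thus the lowest of the 12. The log2 difference of busulfan from control was 0.85 ± 0.38 (edgeR adjusted p = 0.433). Without control replicate 1 it was 1.55 ± 0.23 (edgeR adjusted p = 0.0473). That fit kept only control replicates 2 and 3, and the library left out lay within the range of the other groups. Pygb was called in no other alternative, so the call depends on omitting that library. Adm, a vasodilator peptide that rises in hypoxia, stood at 8.30, 56.1 and 38.0 CPM in the control libraries and at 8.22, 36.6 and 20.9 CPM with AOS-FMT, against 9.59 to 13.2 CPM with busulfan and 9.64 to 10.4 CPM with control-FMT. The summed atrial markers were 546, 5985 and 5462 CPM in the control libraries and 874, 8414 and 4521 CPM in the AOS-FMT libraries, in the order of replicates, and their part in Adm and Pygb was not tested.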
